A study of Mus musculus with 6 samples.

Results

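The 38 genes described here encode clathrin, its adaptors and uncoating factors, the dynamins, membrane-bending proteins, and the early endosome and retromer proteins that sort internalised cargo. They were chosen by gene symbol in the count table, which holds 55232 features. The 38 symbols matched 39 features, because the ESCRT-0 gene Hgs has 2 entries. Of these, 36 had enough reads to be tested, among 13804 tested features in all. The data were RNA-seq counts from microvascular endothelial cells of the mouse lung, which the labels call a cell line, in 2 groups of 3 libraries. The cells had spent 12 h in the lower chamber of a co-culture with TCMK-1 cells, a line of tubular epithelium from mouse kidney. In the repletion group the TCMK-1 cells had been depleted of ATP and then repleted, a model that the labels abbreviate as IR, and in the control group they were untreated. The endothelial cells themselves were untreated in both groups, and the title of the study names their endocytosis of HMGB1, a nuclear protein that injured cells release, as its subject.

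In clathrin-mediated endocytosis, adaptors such as AP-2 gather receptors at the plasma membrane and recruit clathrin, whose heavy and light chains assemble into a curved lattice. A kinase phosphorylates AP-2, proteins with BAR domains bend the membrane, and the dynamin GTPases cut the neck of the pit. A lipid phosphatase and a chaperone with its cofactor strip the coat so that the vesicle can fuse with early endosomes. There the ESCRT-0 complex retains ubiquitinated receptors for degradation, while retromer and its sorting nexins return others. Endothelial cells use this route for receptors such as VEGFR2 and VE-cadherin, beside a route through caveolae.

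Promoter sequence is shown for all 3 members that rose and 2 of the 4 that fell with a call that held in every alternative analysis, to represent the kinase, scaffold, coat, ESCRT-0 and AP-2 roles. Each line gives 250 bases that end just before the RefSeq transcription start, on the GRCm38.p6 build and 5′ to 3′ along the gene's strand. Aak1 is at chr6:86849255-86849504 on the plus strand, Hip1 at chr5:135545123-135545372 on the minus strand, Cltc at chr11:86757568-86757817 on the minus strand, Stam at chr2:14073850-14074099 on the plus strand and Ap2a2 at chr7:141561930-141562179 on the plus strand. These RefSeq starts lay 2 to 12 bases from the gene start in the count table. Capitals mark matches, on either strand, to any of 8 motifs, named with the promoter comparison.
Aak1: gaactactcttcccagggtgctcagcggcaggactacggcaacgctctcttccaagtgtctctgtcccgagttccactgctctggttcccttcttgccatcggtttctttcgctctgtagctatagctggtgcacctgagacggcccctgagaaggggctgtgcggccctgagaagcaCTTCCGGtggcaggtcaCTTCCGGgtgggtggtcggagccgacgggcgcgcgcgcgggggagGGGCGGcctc
Hip1: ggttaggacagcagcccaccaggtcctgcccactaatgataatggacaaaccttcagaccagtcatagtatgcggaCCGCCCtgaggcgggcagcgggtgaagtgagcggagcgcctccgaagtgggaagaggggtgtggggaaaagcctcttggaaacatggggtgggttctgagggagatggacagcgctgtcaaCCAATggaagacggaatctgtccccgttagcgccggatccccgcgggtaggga
Cltc: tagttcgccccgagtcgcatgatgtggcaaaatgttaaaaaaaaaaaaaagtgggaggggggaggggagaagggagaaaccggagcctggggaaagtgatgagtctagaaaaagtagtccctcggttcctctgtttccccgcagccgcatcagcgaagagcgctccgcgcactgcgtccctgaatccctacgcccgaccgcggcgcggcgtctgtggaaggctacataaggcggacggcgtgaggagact
Stam: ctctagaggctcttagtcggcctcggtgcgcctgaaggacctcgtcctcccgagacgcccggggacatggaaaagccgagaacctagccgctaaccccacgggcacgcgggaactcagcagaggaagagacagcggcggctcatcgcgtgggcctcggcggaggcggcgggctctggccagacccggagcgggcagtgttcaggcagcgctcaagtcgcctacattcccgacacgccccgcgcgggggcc
Ap2a2: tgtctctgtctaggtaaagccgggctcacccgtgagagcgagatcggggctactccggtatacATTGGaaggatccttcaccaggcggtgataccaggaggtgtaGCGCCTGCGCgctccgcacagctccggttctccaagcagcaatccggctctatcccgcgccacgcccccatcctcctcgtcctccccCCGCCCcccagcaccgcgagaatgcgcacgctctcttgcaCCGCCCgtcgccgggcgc

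Aak1 held 2 ETS sites and 1 GC box, Hip1 held 1 GC box and 1 CCAAT box, and Ap2a2 held 1 CCAAT box, 1 NRF1 site and 2 GC boxes. Cltc and Stam held no match in these windows.

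The libraries held 15582349 to 17817618 counts, with 17899 to 22130 features detected. Libraries of 1 group were not duplicates of each other (chi-square per feature 8.98 to 26.5, above sampling noise). The labels do not say whether each had its own culture, and the p-values reflect the spread among these libraries, and that spread may be technical. The 12 endothelial markers summed to between 2535 and 2983 reads scaled to library size (CPM) in repletion libraries and between 2391 and 2667 CPM in control libraries. Pecam1 and Cdh5 were abundant, while the junction gene Cldn5 reached at most 0.193 CPM in the repletion group and was at 0 in the control group. Of 12 tubular epithelial markers, Epcam, Slc34a1, Umod and Krt18 were at 0 in every library, and the list summed to between 3.47 and 4.63 CPM in repletion libraries and between 2.30 and 2.76 CPM in control libraries. The 8 leukocyte markers summed to between 223 and 311 CPM in repletion libraries and between 378 and 417 CPM in control libraries. Nearly all of that was the lysosomal gene Cd68, with Itgam and Cd3e at 0 and Ptprc at no more than 0.241 CPM. The 6 lung epithelial markers summed to at most 0.385 CPM in repletion libraries and 0.740 CPM in control libraries, and the 8 fibroblast and mural markers to 17.2 to 25.3 CPM in repletion libraries and 20.3 to 22.6 CPM in control libraries. The 4 lymphatic endothelial markers summed to 116 to 133 CPM in repletion libraries and 77.1 to 101 CPM in control libraries, mostly Flt4, while Prox1 stayed at or below 0.834 CPM. Whether these levels have a part in the results on the endocytosis genes was not tested. In such bulk samples, fewer cells of a type and less RNA per cell cannot be told apart.

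The comparison asks how the transcripts of the endocytic machinery differ in lung endothelial cells after co-culture with kidney cells recovering from ATP depletion. Of the 36 tested members, 6 rose (Aak1, Dnm3, Hip1, Epn2, Itsn1 and Cltc) and 7 fell (Flot1, Stam, Ap2a2, Ap2m1, Snx2, Vps29 and Ap2b1) at an adjusted p under 0.05 in edgeR's quasi-likelihood test with Benjamini-Hochberg adjustment over all tested features. The rises were 16.7% of the tested members, beside 20.5% of all tested features, and the falls were 19.4%, beside 19.2%. Both shares are near the background, so the number of calls sets these genes apart in neither direction. The changes were small: the median size of the log2 fold change was 0.20 among the members and 0.38 among all tested features. As tested, no member changed 2-fold or more, against 1827 of the 13804 tested features. The tested features were not matched to the members for read number, and the part of read number in this difference was not tested. Over the alternative analyses, the log2 fold change reached 1.09 for Aak1, 1.09 for Dnm3 and 1.11 for Ehd3. The median log2 fold change of the members was -0.10, against 0.00 over all tested features, but -0.02 without repletion replicate 2 and -0.03 with library size only. The 23 tested members that did not pass had log2 fold changes between -0.34 and 0.66. The groups did not overlap for 8 members that were higher and 9 that were lower in repletion cells, beside 25.0% and 25.4% of all tested features. In the authors' deposited table, 6 members were higher and 7 lower at the same threshold, and all 36 tested members had the same call as here. Of the 24680 features with a deposited p-value, 2822 (11.4%) were higher and 2481 (10.1%) lower. These features include many with too few reads to be tested here. Those 2 shares are therefore not a like background for the members, and 20.5% and 19.2% remain the closer one.

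**Figure D1:**
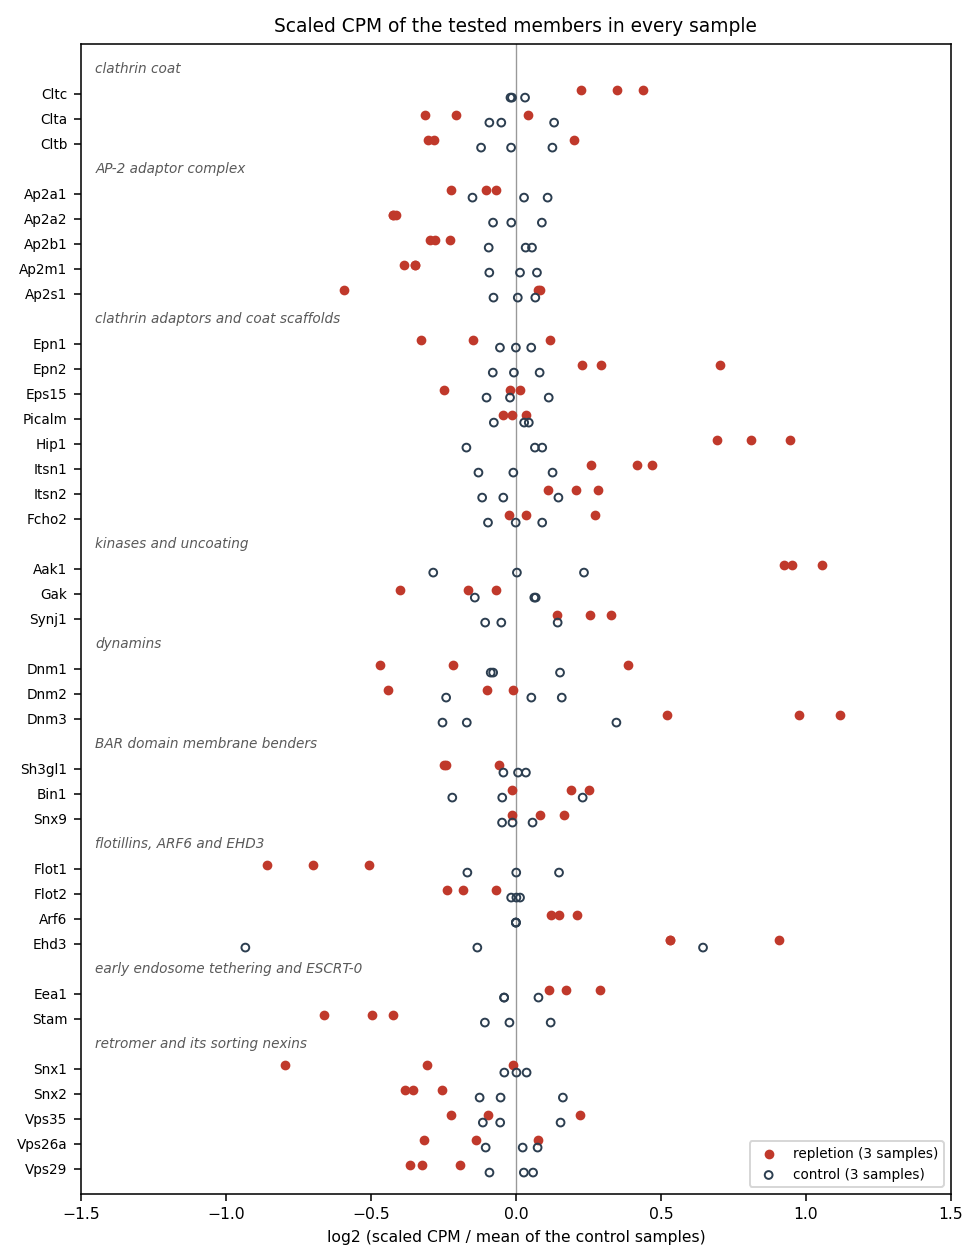
The log2 of TMM-scaled CPM of each tested member in each library, relative to the mean of the 3 control libraries, with genes ordered by role. Filled points are the 3 repletion libraries and open points the 3 control libraries. By their means, Aak1, Hip1 and Dnm3 stand farthest above the control libraries and Flot1 and Stam farthest below.

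By role, the members that rose were coat, scaffold, kinase and dynamin genes, and those that fell were AP-2, flotillin, ESCRT-0 and retromer genes. No role had calls in both directions, but only AP-2, the adaptors and scaffolds, and the retromer genes had more than 1 call. The other roles could not have had both. The roles hold only 2 to 8 tested genes each, and no test was made of a role as a whole. Values are given next as TMM-scaled CPM, that is, reads per library size after scaling for composition, in replicates 1, 2 and 3 of each group, with the mean ± SD over n = 3.

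Cltc encodes the clathrin heavy chain, which forms the legs of the lattice. It lies at chr11:86694351-86757565 in GRCm38 with 33 exons. It had 1001, 1161 and 1091 CPM in repletion cells and 846, 876 and 849 CPM in control cells. Every repletion library was above every control library. The means were 1085 ± 80.2 CPM in repletion cells and 857 ± 16.1 CPM in control cells, and the log2 fold change was 0.34 ± 0.10 (SE; edgeR adjusted p of 0.00947). The call of Cltc held in every alternative, but narrowly. Its adjusted p ran from 0.00123 to 0.0494, the highest being that of edgeR without control replicate 3. The light chain genes, whose products regulate the heavy chain, gave no call. Clta had 197, 154 and 166 CPM in repletion cells and 209.9, 179.8 and 185 CPM in control cells, with an edgeR adjusted p of 0.307, and Cltb had 24.4 ± 5.06 CPM in repletion cells and 26.3 ± 2.28 CPM in control cells, with an edgeR adjusted p of 0.618. Both light chain genes had overlapping groups. Per kilobase, Cltc reads were 102%, 152% and 132% of the light chain reads in repletion cells and 81.9%, 97.9% and 91.9% in control cells. This ratio of heavy to light chain transcript did not overlap between the groups, with means of 129 ± 25.1% in repletion cells and 90.6 ± 8.08% in control cells. Cltc is the longer gene, and with the trend with length and base composition removed the log2 fold changes were 0.23 for Cltc, 0.02 for Clta and -0.03 for Cltb, closer together than the 0.34, -0.15 and -0.11 as tested. Clta made up 95.1 ± 0.399% of light chain transcript in repletion cells and 95.1 ± 0.696% in control cells.

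AP-2, the adaptor that binds both cargo and clathrin at the plasma membrane, has alpha, beta, mu and sigma subunits, with the alpha subunit encoded by Ap2a1 or Ap2a2. Of its 5 genes, 3 fell and none rose, beside 19.2% and 20.5% of all tested features, and the call of Ap2b1 was lost in 7 of 15 alternatives. Ap2a2, at chr7:141562173-141633011, had 159, 159 and 160.2 CPM in repletion cells and 202, 211 and 227 CPM in control cells. The repletion libraries were nearly equal and below all control libraries. The means were 159 ± 0.745 CPM in repletion cells and 214 ± 12.7 CPM in control cells, with a log2 fold change of -0.42 ± 0.10 and an edgeR adjusted p of 0.00259. An antisense feature, Gm16982, shares 4.26% of its exon bases. Ap2m1 encodes the mu subunit, which recognises tyrosine-based sorting signals, and lies at chr16:20535478-20544909. It had 257, 264 and 264 CPM in repletion cells and 353, 315 and 339 CPM in control cells. No repletion library reached a control library, and the log2 fold change was -0.36 ± 0.10 with an edgeR adjusted p of 0.00685. A processed pseudogene, Gm13509, matches 44.5% of its transcript at 99.7% identity, so reads of the pair may be split and the value is uncertain.

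The beta subunit gene Ap2b1, at chr11:83299024-83405035, had 242, 239 and 251 CPM in repletion cells and 275, 305 and 300.4 CPM in control cells. The groups did not overlap, and the log2 fold change was -0.26 ± 0.10 with an edgeR adjusted p of 0.0380. That call was lost on leaving out control replicate 2 (edgeR adjusted p of 0.0968), control replicate 3 (0.116) or any repletion replicate (0.0577 to 0.0797), and the range over its alternatives was 0.00127 to 0.116. The other alpha gene, Ap2a1, had 124 ± 6.91 CPM in repletion cells and 135 ± 12.2 CPM in control cells, with an edgeR adjusted p of 0.352, and Fuz on the opposite strand shares 16.7% of its exon bases. The sigma gene Ap2s1 had 53.9, 33.9 and 54.2 CPM in repletion cells and 53.6, 48.5 and 51.4 CPM in control cells, with an edgeR adjusted p of 0.594. Its log2 fold change was -0.11, and 0.07 without repletion replicate 2, the one low library. The 5 values of the complex ran from -0.42 to -0.11, all below 0, although that of Ap2s1 turned positive without that library and with the trend with gene length and base composition removed. Within the alpha pair, Ap2a1 held 51.6%, 49.0% and 50.9% of the reads per kilobase in repletion cells and 44.2%, 46.3% and 45.8% in control cells. Ap2a1 thus had the larger share in 2 of 3 repletion libraries, and Ap2a2 in all 3 control libraries.

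Of the 8 adaptors and coat scaffolds, 3 rose and none fell, beside 20.5% and 19.2% of all tested features, and the call of Hip1 alone among the 3 held in every alternative. Hip1 binds clathrin and AP-2 and links the coat to inositol lipids, and lies at chr5:135406531-135545120 with 33 exons. It had 152, 140.1 and 167 CPM in repletion cells and 77.0, 90.7 and 92.3 CPM in control cells. The lowest repletion library was well above the highest control library. The means were 153 ± 13.3 CPM in repletion cells and 86.7 ± 8.42 CPM in control cells, 1.76-fold, with a log2 fold change of 0.82 ± 0.11 and an edgeR adjusted p of 2.81e-05. Itsn1 encodes intersectin 1, a large scaffold that gathers dynamin, synaptojanin and epsins, and lies at chr16:91729281-91920597. It had 83.5, 72.3 and 80.6 CPM in repletion cells and 60.0, 65.9 and 55.2 CPM in control cells, without overlap. The log2 fold change was 0.38 ± 0.11 with an edgeR adjusted p of 0.0126, but it was -0.00 with an edgeR adjusted p of 0.998 once the trend with gene length and base composition was removed, and leaving out control replicate 3 (0.0892) or repletion replicate 3 (0.0567) ended the call too, within a range of 0.00569 to 0.998.

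Epn2, at chr11:61517249-61579687, encodes epsin 2, an adaptor for ubiquitinated cargo that inserts a helix into the membrane. It had 33.4, 46.5 and 35.0 CPM in repletion cells and 28.4, 27.0 and 30.2 CPM in control cells. Repletion replicate 2 was the highest, and the other repletion libraries were also above all control libraries. The log2 fold change was 0.42 ± 0.14 with an edgeR adjusted p of 0.0271. Without repletion replicate 2 it was 0.25 with an edgeR adjusted p of 0.157, and leaving out control replicate 1 (0.0758), 2 (0.114) or 3 (0.0541) ended the call too, within a range of 0.00946 to 0.157. Its paralogue Epn1 had 116, 85.2 and 96.5 CPM in repletion cells and 103, 111 and 107 CPM in control cells, with an edgeR adjusted p of 0.490. Epn1 made up 86.6%, 77.3% and 83.7% of epsin reads per kilobase in repletion cells and 87.1%, 88.4% and 86.9% in control cells. The means were 82.5 ± 4.75% in repletion cells and 87.5 ± 0.84% in control cells. The groups did not overlap, but only narrowly, and repletion replicate 2 was the lowest.

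The remaining scaffolds gave no call. Picalm, which sorts SNARE proteins into the pit, had 377 ± 10.6 CPM in repletion cells and 378 ± 16.9 CPM in control cells, with an edgeR adjusted p of 0.966. Eps15, which marks the rim of the pit, had -0.08 as its log2 fold change (edgeR adjusted p of 0.572), and Fcho2, which bends the membrane at its start, had 0.10 (0.512). The second intersectin gene, Itsn2, had 178, 158 and 169 CPM in repletion cells and 135, 162 and 142 CPM in control cells, with an edgeR adjusted p of 0.135, and Gm48678 on the opposite strand shares 11.0% of its exon bases. Itsn1 held 21.3 ± 0.356% of intersectin reads per kilobase in repletion cells and 19.3 ± 1.08% in control cells. The groups did not overlap, but narrowly, with 20.9% in the lowest repletion library and 20.5% in the highest control library.

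Aak1, the kinase that phosphorylates the mu subunit of AP-2 and so strengthens its hold on cargo, had the largest fold change of the 36 as tested, although Ehd3 (0.68, not past the threshold) and Hip1 (0.61) stood above it with the trend with length and base composition removed. It lies at chr6:86849517-87003223 with 21 exons and a deposited length of 21453 bases. It had 132, 129.6 and 142 CPM in repletion cells and 56.0, 80.3 and 68.4 CPM in control cells. The lowest repletion library was far above the highest control library. The means were 134 ± 6.46 CPM in repletion cells and 68.2 ± 12.1 CPM in control cells, 1.97-fold, with a log2 fold change of 0.98 ± 0.12 and an edgeR adjusted p of 1.45e-05. With the trend with gene length and base composition removed, its log2 fold change was 0.57, and the adjusted p over its alternatives ran from 3.76e-13 to 0.000406. The related kinase and uncoating cofactor Gak had 76.4 ± 8.77 CPM in repletion cells and 88.0 ± 7.16 CPM in control cells, with an edgeR adjusted p of 0.174. Synj1, the lipid phosphatase synaptojanin 1, had 48.3, 55.0 and 52.3 CPM in repletion cells and 40.7, 48.4 and 42.3 CPM in control cells, with overlapping groups and an edgeR adjusted p of 0.121.

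Among the dynamins, Dnm2, the widely expressed form, made up nearly all of the transcript. It had 152, 113 and 143 CPM in repletion cells and 129.7, 171 and 159 CPM in control cells. The groups overlapped, and the log2 fold change was -0.17 ± 0.13 with an edgeR adjusted p of 0.303. Dnm3, known from brain, testis and lung and lying at chr1:161982453-162478034, rose 1.86-fold from a low level, with 10.6, 7.74 and 11.7 CPM in repletion cells and 4.52, 6.85 and 4.79 CPM in control cells. These rest on 182, 123 and 196 reads in repletion cells and 71, 108 and 83 reads in control cells. The log2 fold change was 0.90 ± 0.24 with an edgeR adjusted p of 0.00670. It was 0.49 with an adjusted p of 0.0944 once the length and base composition trend was removed, the top of a range that began at 0.00253. Dnm1, the neuronal form, had 1.76 ± 0.562 CPM in repletion cells and 1.83 ± 0.177 CPM in control cells, with an edgeR adjusted p of 0.940. Per kilobase, Dnm3 was 1.56 ± 0.158% of dynamin reads in repletion cells and 0.748 ± 0.106% in control cells, and Dnm2 was 97.2 ± 0.189% in repletion cells and 98.1 ± 0.184% in control cells. Neither share overlapped between the groups, and Dnm2 remained the main form in both.

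**Figure D2:**
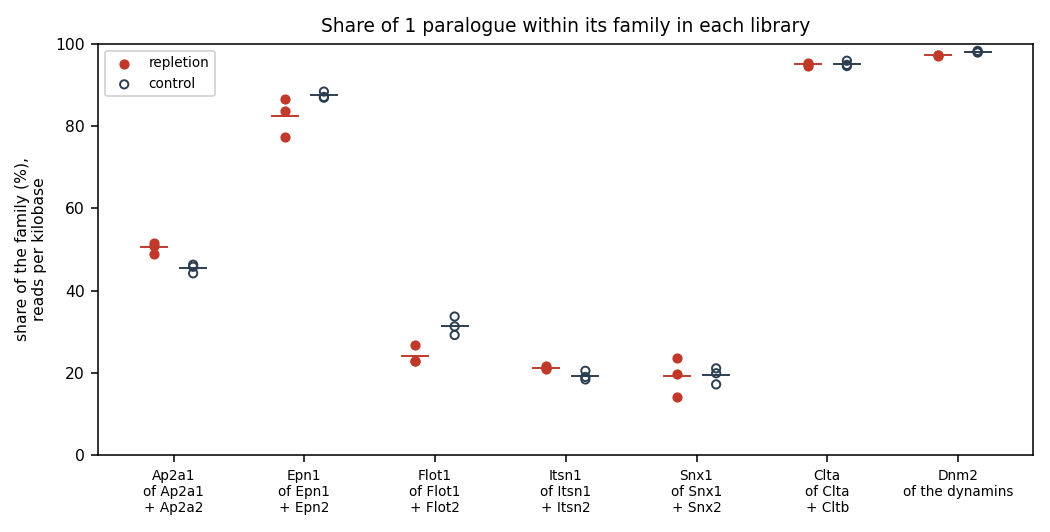
The share of each paralogue in its family, in percent of reads per kilobase within a library, with the 3 repletion libraries (filled) left of the 3 control libraries (open) and a horizontal line at each mean. The shares of Ap2a1 and Itsn1 were higher and those of Epn1 and Flot1 lower in repletion cells without overlap, while Clta stayed at 95.1% of the light chains in both groups. The separation was narrow for Itsn1 and Epn1.

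The BAR domain genes gave no call. Sh3gl1, encoding an endophilin, had 55.5, 48.7 and 48.9 CPM in repletion cells and 58.1, 56.1 and 59.2 CPM in control cells, without overlap but with an edgeR adjusted p of 0.225. Snx9, which couples bending to actin assembly, had 0.08 as its log2 fold change (edgeR adjusted p of 0.542), and Bin1, an amphiphysin, had 0.15 (0.394). A830052D11Rik on the opposite strand shares 6.22% of the annotated exon bases of Bin1. Amph, the neuronal amphiphysin, had 6 reads in repletion replicate 1 and 0 in the other 5 libraries, and was not tested.

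Of the flotillins, which form membrane domains that take up cargo without clathrin, Flot1 had the lowest log2 fold change of the members as tested, and Stam stood beside it (-0.65 and -0.64 for Flot1) with the trend with length and base composition removed. It lies at chr17:35823230-35832791 with 12 exons. It had 27.4, 21.5 and 24.0 CPM in repletion cells and 34.7, 39.0 and 43.2 CPM in control cells. The highest repletion library was below the lowest control library. The means were 24.3 ± 2.97 CPM in repletion cells and 39.0 ± 4.29 CPM in control cells, with a log2 fold change of -0.68 ± 0.14 and an edgeR adjusted p of 0.00108. Its partner Flot2 had 70.8, 68.2 and 76.6 CPM in repletion cells and 79.5, 81.2 and 80.5 CPM in control cells. These groups did not overlap either, but the log2 fold change of -0.16 had an edgeR adjusted p of 0.239. Flot1 held 24.2 ± 2.26% of flotillin reads per kilobase in repletion cells and 31.4 ± 2.24% in control cells, without overlap. Arf6, a GTPase of recycling and of uptake without clathrin, had 118, 113 and 111 CPM in repletion cells and 102 CPM in each control library, with an edgeR adjusted p of 0.197. On the opposite strand, Gm9887 shares 13.6% of the exon bases of Arf6. Ehd3, a recycling ATPase, had 2.28, 2.96 and 2.28 CPM in repletion cells and 0.827, 2.47 and 1.44 CPM in control cells. With so few reads its log2 fold change of 0.66 had an SE of 0.44, and a difference was not detectable at this depth.

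At the early endosome, Stam fell. It encodes the ESCRT-0 subunit that binds ubiquitinated receptors together with the product of Hgs, and lies at chr2:14074098-14149634 with 18 exons. It had 139, 146 and 124 CPM in repletion cells and 213, 193 and 182 CPM in control cells. All repletion libraries were below all control libraries. The means were 136 ± 11.3 CPM in repletion cells and 196 ± 15.9 CPM in control cells, with a log2 fold change of -0.53 ± 0.11 and an edgeR adjusted p of 0.000914. Eea1, the tether of early endosomes, had 235, 217 and 208 CPM in repletion cells and 187, 203 and 187 CPM in control cells, without overlap and with an edgeR adjusted p of 0.127. The level of Hgs cannot be read from the table: its 2 entries, at chr11:120467635-120483979, share 97.2% of the exon bases of the first, which had 7, 0 and 1 reads in repletion cells and 0, 5 and 0 reads in control cells, and the second had none.

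Of the 5 retromer and sorting nexin genes, 2 fell and none rose, beside 19.2% and 20.5% of all tested features, and neither call held in every alternative. Snx2, a sorting nexin whose BAR domain forms tubules on endosomes, had 109, 119 and 111 CPM in repletion cells and 159, 137 and 130.3 CPM in control cells. The groups did not overlap, and the log2 fold change was -0.33 ± 0.11 with an edgeR adjusted p of 0.0209. That call was lost with the length and base composition trend removed (log2 fold change of -0.19, edgeR adjusted p of 0.103), without control replicate 1 (0.0861) and without repletion replicate 3 (0.0759), within a range of 0.0101 to 0.103. Its paralogue Snx1 had 72.8, 42.2 and 59.2 CPM in repletion cells and 71.3, 73.4 and 75.2 CPM in control cells. Repletion replicate 2 was low and repletion replicate 1 lay among the control libraries. The log2 fold change was -0.34 ± 0.15 with an edgeR adjusted p of 0.0865. Without repletion replicate 2, the low library, it was -0.16 (edgeR adjusted p of 0.332). Without repletion replicate 1 it passed (-0.53, edgeR adjusted p of 0.00368), as it did with no filter on low counts (0.0186), within a range of 0.00368 to 0.332. Snx1 held 19.2 ± 4.76% of the reads per kilobase of the pair in repletion cells and 19.4 ± 2.02% in control cells.

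The retromer core gene Vps29, at chr5:122354369-122364984, had 73.5, 71.4 and 80.5 CPM in repletion cells and 93.8, 95.9 and 86.4 CPM in control cells. The groups did not overlap, with a log2 fold change of -0.29 ± 0.11 and an edgeR adjusted p of 0.0368. Fam216a on the opposite strand shares 5.53% of the exon bases of Vps29. Leaving out control replicate 1 (edgeR adjusted p of 0.0677), 2 (0.0984) or 3 (0.0514), or repletion replicate 1 (0.0644) or 2 (0.0794), ended the call, within a range of 0.0275 to 0.0984. The other core genes did not pass. Vps35, the scaffold of the complex, had 481, 655 and 525 CPM in repletion cells and 625, 541 and 519 CPM in control cells, with an edgeR adjusted p of 0.909. Vps26a had 225 ± 30.6 CPM in repletion cells and 244 ± 15.6 CPM in control cells, with an edgeR adjusted p of 0.439. Repletion replicate 2 was the lowest of the 6 libraries for 14 of the 36 tested members and the highest for 7, which include Vps35 and Cltc. Control replicate 1 was the lowest for 10, and repletion replicate 1 the highest for 9. These counts were not set beside those of all tested features, so they do not tell a trait of the members from one of the library.

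Levels between genes were compared as the deposited FPKM, which divide by gene length. In repletion cells Cltc led with 127 ± 10.2 FPKM, above Clta with 95.4 ± 11.6 FPKM without overlap. In control cells Clta had 105 ± 8.88 FPKM and Cltc 99.6 ± 1.77 FPKM, and these overlapped. Vps26a had 78.5 ± 11.1 FPKM in repletion cells, where it overlapped with Clta, and 84.2 ± 5.37 FPKM in control cells, below both without overlap. Arf6 had 74.0 ± 2.34 FPKM in repletion cells, above Ap2m1 without overlap, and 65.5 ± 0.133 FPKM in control cells, where its mean was below that of Ap2m1. Ap2m1 had 63.2 ± 1.27 FPKM in repletion cells and 80.4 ± 4.58 FPKM in control cells. Vps35 and Snx2 were the other members above 50 FPKM, which 7 members reached in each group. The remaining AP-2 genes stood at 27.8 to 32.0 FPKM in repletion cells and 31.1 to 37.2 FPKM in control cells, and each of them overlapped with its neighbour in the order in repletion cells. In all, 26 members reached 10 FPKM and 33 reached 1 FPKM in each group. Aak1 was low for its read number, with 6.23 ± 0.294 FPKM in repletion cells and 3.14 ± 0.555 FPKM in control cells. At the bottom, Dnm3 had 0.408 ± 0.0823 FPKM in repletion cells and 0.217 ± 0.0514 FPKM in control cells. Ehd3 had 0.380 ± 0.0621 FPKM in repletion cells and 0.238 ± 0.125 FPKM in control cells, and Dnm1 had 0.334 ± 0.105 FPKM in repletion cells and 0.343 ± 0.033 FPKM in control cells. Neighbours among these 3 genes overlapped in both groups.

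**Figure D3:**
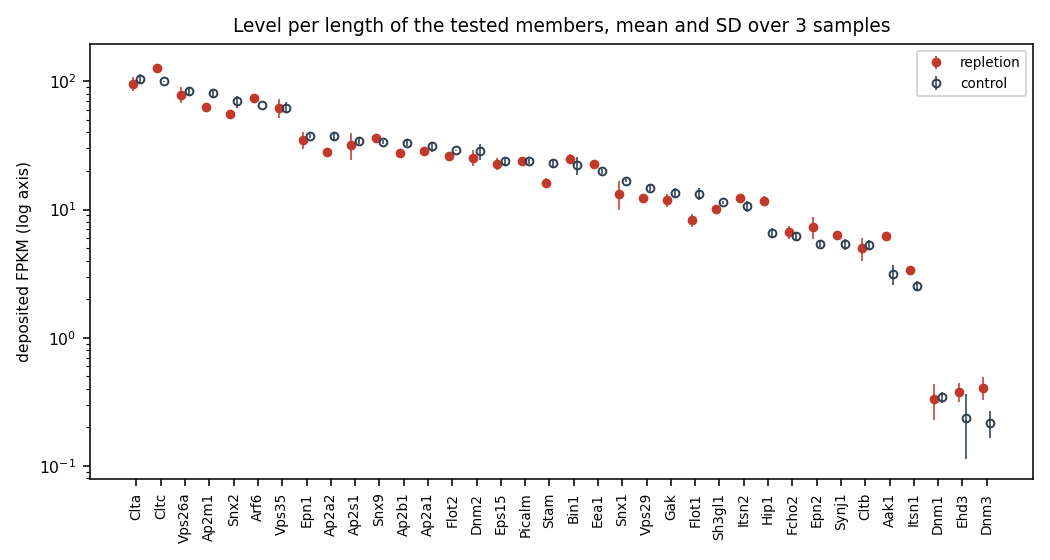
Deposited FPKM of each tested member on a log axis, as the mean with SD over 3 libraries, with repletion (filled) left of control (open) for each gene. Cltc and Clta stand at the top near 100 FPKM, and Dnm3, Ehd3 and Dnm1 lie below 1 FPKM in both groups.

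The members that rose were longer at the median than the others, while those that fell were not shorter at the median than those without a call. The 6 members that rose had a median deposited length of 17207 bases (5228 to 24452), the 7 that fell 5663 bases (2013 to 8755) and the 23 others 5012 bases (1472 to 15732). Across the 36 members, Spearman's rho between length and log2 fold change was 0.47, and across all 13804 tested features 0.19, as a description over genes that share the same 6 libraries. Of the 7 members of at least 10000 bases, 4 rose (57.1%), beside 43.4% of the 1181 tested features of that length. Of the 29 shorter members, 2 rose (6.90%), beside 18.4% of the 12623 shorter features. The median log2 fold change of the 7 long members was 0.38, and -0.00 after removal, in each library, of the dependence of counts on length and GC content. For all long features these medians were 0.31 and 0.02. The part of gene length in these results was not tested beyond that removal.

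**Figure D4:**
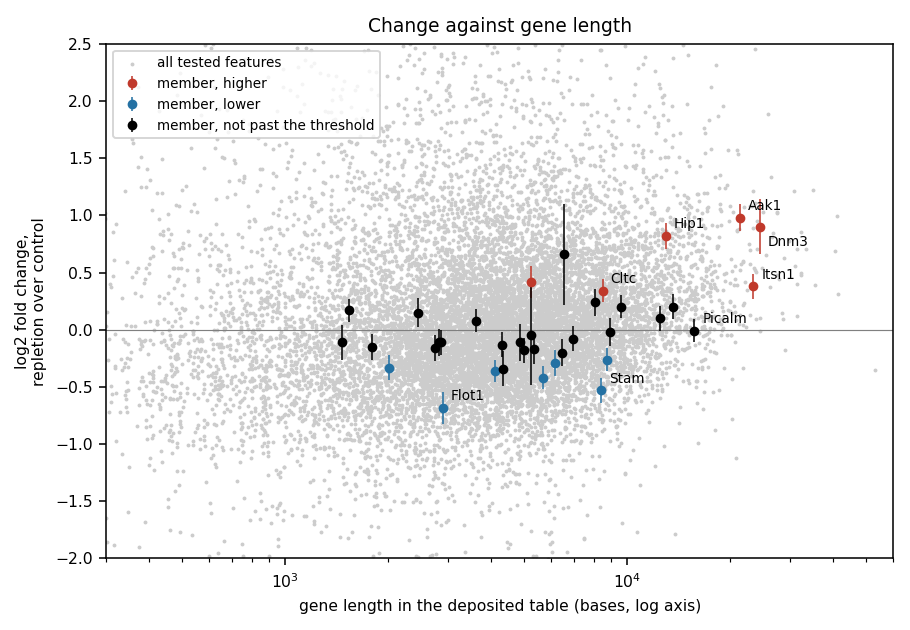
The log2 fold change (repletion over control) of all tested features in grey and of the tested members as larger points with SE (red higher, blue lower, black not past the threshold), by deposited gene length in bases on a log axis; 358 features outside the axes are not drawn. Aak1, Hip1, Itsn1 and Dnm3, which rose, lie at the long end. The members that fell lie below 10000 bases, as do Epn2 and Cltc, which also rose.

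With the trend removed, 5 members were called higher, beside 20.2% of all tested features, and 7 lower, beside 19.3%. Aak1 then had a log2 fold change of 0.57, Hip1 0.61, Epn2 0.49 and Cltc 0.23. Flot1 had -0.64, Stam -0.65, Ap2b1 -0.39, Ap2a2 -0.37, Vps29 -0.29 and Ap2m1 -0.28. These 10 members passed in both analyses. Itsn1, Dnm3 and Snx2 no longer passed. Arf6 passed only in that analysis, at 0.27 with an edgeR adjusted p of 0.0230 (range over its alternatives 0.0230 to 0.478), as did Picalm at -0.29 with 0.0101 (range 0.0101 to 0.990).

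**Figure D5:**
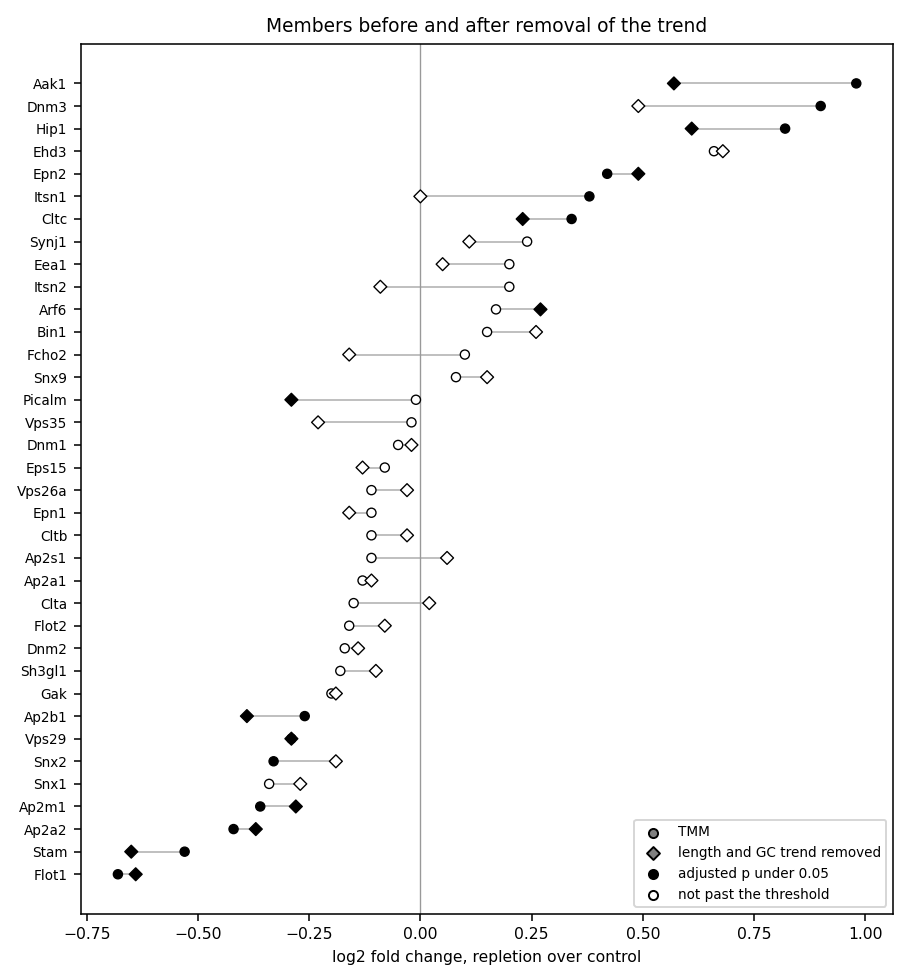
The log2 fold change (repletion over control) of each tested member as tested and with the length and GC trend removed (circles and diamonds; filled where the adjusted p was under 0.05). Aak1 was 0.98 as tested and 0.57 without the trend, Itsn1 was 0.38 and -0.00, and Flot1 was -0.68 and -0.64.

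The promoters were compared with all windows of the same length. RefSeq held a promoter for 32 of the 38 members, and the start nearest to the gene start of the count table was used, among 32851 windows in all. These windows outnumber the 13804 tested features, so they were not limited to genes with reads in these cells. Whether the members' windows differ from those of other tested genes was not tested. The GC box GGGCGG was found in 59.4% of the members' windows and 32.7% of all windows, the NRF1 site in 18.8% and 3.74%, and the ETS site CCGGAAG in 18.8% and 6.91%. The E-box CACGTG was in 12.5% and 6.02%, the CLEAR element, which contains it, in 6.25% and 0.24%, and the cAMP response element TGACGTCA in 6.25% and 1.55%. The CCAAT box was in 34.4% and 33.8%, and the TATA box TATAAA in 3.12% and 12.4%. Both strands were searched. The members' windows were also richer in bases G and C, with a median of 60.6%, against 52.4% in all windows, and in CpG, with a median of 18.5, against 6. The GC box was in the windows of Aak1, Hip1, Itsn1 and Epn2, 4 of the 6 members that rose, and of Ap2a2 and Vps29, 2 of the 5 windows from members that fell. The NRF1 site was in those of Ap2a2, Ap2m1 and Vps29, 3 of the 5 that fell, and in none of the 6 that rose. A match describes the letters and does not show that a factor binds there.

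Other genes of the pathway showed calls in both directions as well. Of 22 tested genes of 28 that act with clathrin, 5 rose (22.7%) and 4 fell (18.2%), beside 20.5% and 19.2% of all tested features; 3 rose without control replicate 2 or 3 or repletion replicate 3. Ston1, a stonin adaptor, rose to 84.0 ± 15.4 CPM in repletion cells, against 30.0 ± 4.51 CPM in control cells, with a log2 fold change of 1.49 and an edgeR adjusted p of 1.21e-06, a larger change than in any of the 36 members. Pip5k1c, a kinase that makes the lipid to which AP-2 binds, rose by 1.05, and Clint1, an epsin-related adaptor of the Golgi and endosomes, by 0.39. Necap1, an AP-2 partner, had 54.5 ± 3.57 CPM in repletion cells and 93.0 ± 1.03 CPM in control cells, a log2 fold change of -0.77 with an edgeR adjusted p of 3.38e-05. Hspa8, the chaperone that removes the coat, had 4811 ± 288 CPM in repletion cells and 6582 ± 193 CPM in control cells, a log2 fold change of -0.45. Eps15l1, related to Eps15, had -0.47.

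Of 18 tested genes of 21 for membrane bending and scission, 3 rose and 3 fell (16.7% each), and 2 fell without control replicate 2 or 3 or repletion replicate 3. Dbnl, which links dynamin to actin, rose by 0.65, Wipf1, an actin regulator, by 0.51, and Arhgap26, of the GRAF family of uptake without clathrin, by 0.80, a call lost with the length and GC trend removed. Sh3glb1, an endophilin B, had a log2 fold change of -0.42, the sorting nexin Snx33 -0.40 and Pacsin3 -0.51. The call of Snx33 was lost without control replicate 3 (edgeR adjusted p of 0.0819) or repletion replicate 3 (0.0747), within a range of 0.00879 to 0.0819. That of Pacsin3 was lost without control replicate 2 (0.0911), within a range of 0.0134 to 0.0911. Of 24 tested early endosome and retromer genes, 3 rose (12.5%, beside 20.5% of all tested features) and 7 fell (29.2%, beside 19.2%), and without repletion replicate 3 the second count was 4. Tbc1d5, which binds retromer, had 63.1 ± 7.09 CPM in repletion cells and 31.9 ± 2.11 CPM in control cells, with a log2 fold change of 0.98 and an edgeR adjusted p of 1.55e-05. The calls of Vps26b (0.34) and Snx27 (0.29) were not stable. That of Vps26b, whose groups overlapped, was lost in 7 of 15 alternatives, among them leaving out any control replicate or repletion replicate 2 or 3, with edgeR adjusted p up to 0.155. That of Snx27 was lost in 10, among them DESeq2, the trend removal and the same 5 omissions, with adjusted p up to 0.225. Washc2, of the WASH complex that builds actin on endosomes, had 120.2 ± 8.15 CPM in repletion cells and 191 ± 9.85 CPM in control cells, a log2 fold change of -0.67 with an edgeR adjusted p of 8.71e-05. Washc1 of the same complex had -0.64, and Snx5, a partner of Snx1 and Snx2, -0.42. Over the 3 lists together, 11 of 64 tested genes rose (17.2%) and 14 fell (21.9%), beside 20.5% and 19.2% of all tested features.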

How the data were processed

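The data were RNA-seq profiles of 2 groups of 3 libraries, grouped by their titles. The authors deposited 1 table with raw read counts, FPKM, log2 fold changes and raw and adjusted p-values, as these columns are named per the file headers. Per the submitters' processing notes, the tools were HISAT2 2.0.5, DESeq2 1.20.0 and featureCounts 1.5.0-p3 and the build was GRCm38.p6. The strand setting is not given in the sources used here, and reads of overlapping genes on opposite strands cannot be told apart. The deposited FPKM equal count over length over a constant per library, within 0.1% for 100% of values, and were used only for levels between genes. The log2 fold changes and p-values of the authors' deposited table were used only to count calls, and its group means of size-factor-scaled signal, as deposited by the authors, were not used.

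Counts were filtered with filterByExpr, which left 13804 and removed 41428 features. TMM factors were 0.970 to 1.03, and the test was that of edgeR 4.0.16 (quasi-likelihood test, two-sided, Benjamini-Hochberg over all tested features, threshold 0.05) in R 4.3.3. The SE came from the F statistic. The common biological coefficient of variation was 14.1%. In a simulation with 13804 genes, 50.7% of 67 genes with a 1.5-fold change were recovered, as were 82.1% of 67 with a 2-fold and 90.9% of 66 with a 4-fold change, beside 9 false calls. Only these genes were changed there, while 2830 features were called higher and 2654 lower in the data. The simulated spread followed only its trend with read number. These rates check the procedure and may not hold for this comparison. GENCODE M21 held 99.9% of the Ensembl identifiers. Near-identical copies were sought with BLAST 2.17.0 at 95% identity over at least 30% of the longest transcript. The 2 members with a match were Ap2m1 and Hgs, and 14 members share exon bases with another entry. For Hgs, both the match and the overlap are with its own second entry. Overlaps not given with their genes are at most 3.88% of the exon bases (Dnm2).

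Alternatives were DESeq2 1.42.0, limma-voom 3.58.1, RLE, upper quartile and library size scaling, no filter, at least 1 CPM in 3 samples, a length and GC trend removed per library, a replicate block and each replicate left out. All members are given, and of the other pathway lists up to 3 called genes per direction with the smallest p are named. The members and lists were chosen with earlier results of these data known.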

Additional observations from a re-analysis of the deposited data

How the results depend on the processing

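Of the 540 values that the 15 alternatives gave for the tested members, 492 kept their direction and side of the threshold, 26 fell short of it, 4 newly passed it and 18 changed sign. Of the 13 called members, 7 kept their call in every alternative: Aak1, Hip1, Cltc, Flot1, Stam, Ap2a2 and Ap2m1. Cltc kept it narrowly, with an edgeR adjusted p of 0.0494 without control replicate 3. With library size only, 4 members were lower, and Ap2b1, Snx2 and Vps29 did not pass; with no filter, 3 other clathrin genes and 1 other early endosome gene were higher. Leaving out 1 replicate gave 4 to 6 members higher and 5 to 6 lower, 3 to 7 other clathrin genes higher, and 1 to 3 other early endosome genes higher and 4 to 8 lower.

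The sign changed in 8 members. With the length and GC trend removed, the log2 fold change was 0.02 for Clta, 0.06 for Ap2s1, -0.00 for Itsn1, -0.09 for Itsn2 and -0.16 for Fcho2. With library size only it was 0.06 for Picalm, 0.01 for Dnm1 and 0.04 for Vps35, and for Picalm 0.00 with RLE and 0.01 with at least 1 CPM. Leaving out 1 replicate gave -0.23 to 0.07 for Ap2s1, -0.05 to 0.01 for Picalm, -0.34 to 0.12 for Dnm1 and -0.16 to 0.07 for Vps35. The cause of these changes was not tested. All 60 paralogue shares without 1 replicate stayed within 1 SD. Leaving out 1 of so few libraries cannot move a group mean by as much as 1 SD. That count therefore does not tell whether the shares are stable. The median over the features these settings cover was 0.17 with DESeq2 and 0.13 with no filter, which keep features with few reads, while the median of the members was -0.09 and -0.13.

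The deviations of same-numbered libraries correlated at -0.0757 to 0.0552, so no shared effect of the replicate number was seen. With 3 libraries per group, this cannot tell whether the samples were paired. With a replicate block, 5 members were higher and 5 lower, among 2485 and 2353 features, with 3 other clathrin genes and 1 other early endosome gene higher. The fall of Vps29 (adjusted p of 0.0821, within 0.0275 to 0.0984 over its alternatives) and Ap2b1 (0.0891, within 0.00127 to 0.116) and the rise of Epn2 (0.0541, within 0.00946 to 0.157) did not pass there. At this depth, few reads limited Dnm1, Ehd3 and Amph, and the call of Dnm3 rested on 71 to 196 reads per library.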
